A study of Mus musculus with 9 samples.

Results

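The transcription factors Pou4f1, Pou4f2, Pou4f3, Isl1, Isl2, Ebf1, Ebf3, Tbr1, Irx2 and Satb1 are known from retinal ganglion cells, which send the output of the retina through the optic nerve to the brain. They were taken by gene name from a table of read counts, and all 10 were found among its 50764 genes. The table holds 9 libraries of poly-A RNA from the retina of adult male mice of wild-type genotype, 3 for each of the groups Olig3, Olig2 and GFP. The eyes had received 1.5 µL of an AAV2 virus in the vitreous, coding for Olig3, Olig2 or green fluorescent protein (GFP), and the optic nerve of every animal had been crushed. The labels give 14 days for the virus and 14 days for the crush in each group, and no uninjured group is among the samples. Olig2 and Olig3 regulate transcription through a helix-loop-helix domain. Olig2 is known from the oligodendrocyte and motor neuron lineages and Olig3 from the dorsal hindbrain and spinal cord. Retinal cells were bound to beads against Thy1 (CD90.2) and 10 to 20 GFP-positive cells were picked for each library. The labels call the cells retinal ganglion cells and name neither the viral promoter nor the mouse strain. Nothing in them says that replicates are different animals, so a p-value here speaks only of the spread among libraries, part or all of which may be technical.

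Ganglion cells are specified from retinal progenitors by a cascade in which Atoh7 opens the way to Pou4f2 and Isl1, which bind many of the same genes and switch on the ganglion cell programme. Pou4f1 and Pou4f3 follow in subsets of the cells, and factors such as Tbr1, Irx2, Satb1, Ebf1, Ebf3 and Isl2 mark or shape particular ganglion cell types. Several of these genes are also used outside ganglion cells. Isl1 is present in ON bipolar cells and cholinergic amacrine cells, Ebf1 and Ebf3 in amacrine cells, Ebf1 also in B cells and pericytes, and Satb1 in T cells.

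Olig2 and Olig3 belong to a class of factors that bind the E-box, CANNTG. The 250 bases upstream of the RefSeq start of Isl1 and of Pou4f1 (build GRCm38.p6, both on the minus strand) are shown because they are the members that carry the E-box form CAGCTG before their 1 listed start. Every CANNTG is in capitals, read 5′ to 3′ along the gene's strand. The stretches lie at chr13:116309689-116309938 for Isl1 and chr14:104468000-104468249 for Pou4f1.
Isl1: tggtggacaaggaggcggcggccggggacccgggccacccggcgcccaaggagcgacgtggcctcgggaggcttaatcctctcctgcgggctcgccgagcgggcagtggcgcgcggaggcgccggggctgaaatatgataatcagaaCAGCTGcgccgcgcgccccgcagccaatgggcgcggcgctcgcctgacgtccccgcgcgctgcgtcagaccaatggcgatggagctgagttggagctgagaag
Pou4f1: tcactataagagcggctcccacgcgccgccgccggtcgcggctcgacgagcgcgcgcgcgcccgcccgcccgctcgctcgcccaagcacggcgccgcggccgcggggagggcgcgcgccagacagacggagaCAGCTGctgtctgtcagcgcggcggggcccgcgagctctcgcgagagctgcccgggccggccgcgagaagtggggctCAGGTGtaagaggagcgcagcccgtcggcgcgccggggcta
The Isl1 stretch holds 1 E-box, CAGCTG, from 103 to 98 bases upstream of the start. The Pou4f1 stretch holds CAGCTG from 118 to 113 bases upstream and CAGGTG from 41 to 36 bases upstream. RefSeq promoters were found for 9 of the 10 members, with 14 starts in all. CANNTG, which reads over both strands and includes the other forms, was found before 7 of these 14 starts and before 66.2% of the 32851 starts in the table. CAGCTG, which is its own reverse complement, was found before 3 of the 14 and before 13.0% of all starts. CATATG, also its own reverse complement, was found before 0 of the 14 and before 3.46% of all starts. CAGATG, searched on both strands, was found before 1 of the 14 and before 14.4% of all starts. A match is a run of letters and not a binding site.

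The libraries held 5355691 to 6979851 counts each. A count of 0 allows up to 3 counts, or 0.430 to 0.560 CPM (a gene's counts scaled to a common library total). This limit covers counting error only, since PCR copies were not told apart by molecular identifiers. Against their label, the libraries held little RNA of ganglion cell markers. The 12 markers that are no transcription factors summed to 0.0103 to 0.231% of the counts per library, while 16 rod genes held 5.33 to 17.2%. Olig3 library 3 had 0 counts of Rbpms, Thy1 and Slc17a6, which define ganglion cells. Of Tubb3, another of the 12 markers, it had 238 counts, beside 251 and 104 in Olig3 libraries 1 and 2. Tubb3 counts were 345, 184 and 173 in the Olig2 libraries and 794, 721 and 541 in the GFP libraries. Olig3 library 3 also had the fewest detected genes (14434). Olig3 library 1 had 16188 detected genes, against 18184 to 21338 in the other 7. Results for the Olig3 group are therefore also given without 1 or both of these libraries. Without both, only Olig3 library 2 is left, so such values rest on 1 library. Olig3 library 2 lay nearest to Olig2 libraries 2 and 3 (chi-square over its degrees of freedom 19.2 and 19.4). For pairs of 1 group that value was 29.5 or more, with 86.1 and 113 from Olig3 library 2 to Olig3 libraries 1 and 3. Olig3 library 2 and Olig2 libraries 2 and 3 were the richest in Malat1 (8.54, 11.7 and 6.15% of counts). In picked cells, fewer cells of a type and less RNA per cell cannot be told apart. Olig2 counts were 114, 97 and 21 in the Olig2 libraries and 0 in every GFP library. Olig3 counts were 172, 113 and 597 in the Olig3 libraries, against 13, 0 and 40 in the GFP libraries.

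Most members were read in some libraries and missed in others. Isl1 and Satb1 had counts in all 9 libraries. Pou4f1, Ebf1 and Ebf3 each had 0 counts in 1 library. Isl2 had 0 counts in 5 libraries, Pou4f2, Pou4f3 and Tbr1 in 6 each, and Irx2 in 7. The filter on low counts left 6 members in the test, Pou4f1, Pou4f3, Isl1, Ebf1, Ebf3 and Satb1, and removed Pou4f2, Isl2, Tbr1 and Irx2. Pou4f3 passed that filter through the 3 libraries that held it. Of the 15609 genes tested, 28.3% had 0 counts in at least 1 library and 0.192% in 6 or more. The number of members with at least 1 count was 4, 8 and 5 in Olig3 libraries 1 to 3, 5, 8 and 7 in Olig2 libraries 1 to 3, and 7, 6 and 7 in GFP libraries 1 to 3. The groups overlapped in that number.

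**Figure D1:**
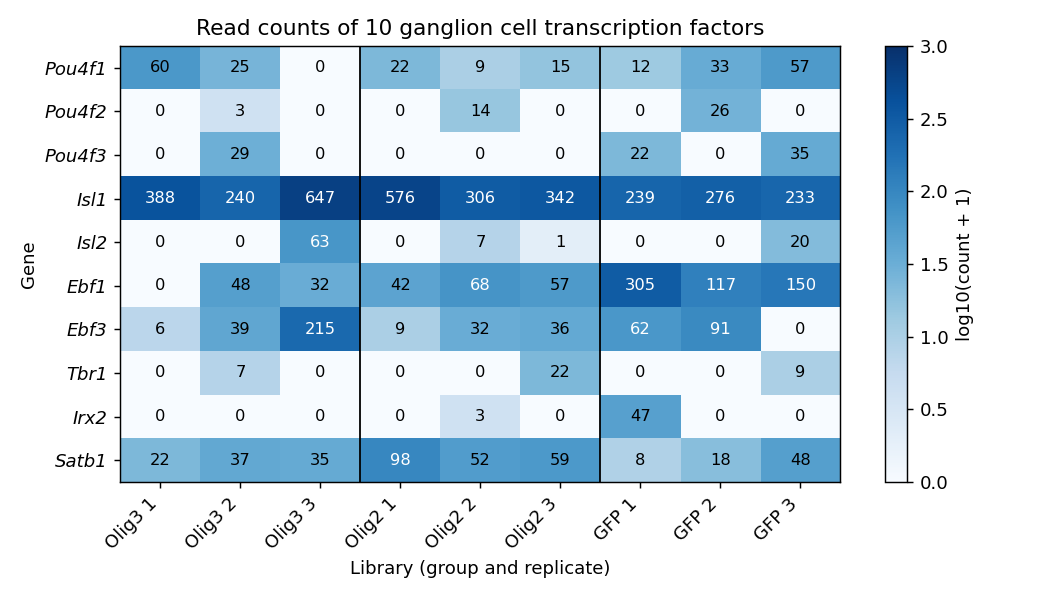
Read counts of the 10 factors (rows) in the 9 libraries (columns, by group and replicate). Shading is log10(count + 1) and the number in each cell is the count. Isl1 is high in every library, with 233 to 647 counts, while Pou4f2, Pou4f3, Isl2, Tbr1 and Irx2 are at 0 in 5 to 7 of the 9 libraries.

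Isl1 was the most abundant member per length in every group. Per kb of exon, its level was 17.9 ± 5.30 CPM with Olig3, 18.2 ± 2.64 with Olig2 and 8.59 ± 0.620 with GFP (SD, n = 3 each). Its library ranges did not overlap those of the next member in any group. In the GFP group Ebf1 came next, with 2.75 ± 1.69 CPM per kb, followed by Pou4f3 (1.11), Pou4f1 (0.971), Ebf3 (0.752), Irx2 (0.714), Isl2 (0.407), Pou4f2 (0.343), Satb1 (0.174) and Tbr1 (0.0732). Below Isl1, the ranges of neighbours in this order overlapped in each group. The level of 1 gene is given below as CPM scaled by trimmed mean of M-values (TMM) factors, with the mean ± SD of 3 libraries per group.

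None of the 6 tested members passed edgeR's quasi-likelihood test, at a Benjamini-Hochberg adjusted p below 0.05 over all genes, in any comparison. With Olig3 against GFP, 0 members were called, beside 0.205% of all genes tested (0.0961% higher and 0.109% lower). With Olig2 against GFP, 0 were called, beside 0.0513% (0.0384% higher and 0.0128% lower). With Olig3 against Olig2, 0 were called, beside 0.0384%, all of them lower. At an unadjusted p below 0.05, 1 member (Isl1) was higher and 0 were lower with Olig3 against GFP, beside 5.76% of all genes higher and 6.37% lower (12.1% together). With Olig2 against GFP, 1 member (Isl1) was higher and 0 lower, beside 2.61% and 2.08% of all genes (4.68% together). Between the factors it was 0 in either direction, beside 2.07% higher and 3.05% lower (5.12% together). DESeq2 called 1 member, Isl1 with Olig3 against GFP, beside 3.44% of all genes to which it gave an adjusted p. It called 0 members with Olig2 against GFP, beside 0.604%, and 0 between the factors, beside 0.539%. Both comparisons with GFP share the GFP libraries and are not independent of each other.

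The POU-homeodomain factors were low, and their libraries overlapped between all groups. Pou4f1 (also called Brn3a; chr14 104461676 to 104467999 in mm10, the build of all gene positions given here), which is found in most ganglion cells and shapes their dendrites, had 60, 25 and 0 counts in Olig3 libraries 1 to 3. In the Olig2 libraries it had 22, 9 and 15 counts, and in the GFP libraries 12, 33 and 57. On the CPM scale this was 8.85, 6.25 and 0 in the Olig3 libraries, 3.14, 2.15 and 2.69 in the Olig2 libraries and 1.80, 4.19 and 7.63 in the GFP libraries. The Olig3 libraries spanned the range of the others, the Olig2 libraries lay close together, and all 3 groups overlapped. Against GFP, the log2 change of Pou4f1 was 0.15 with Olig3 (SE 1.42, edgeR adjusted p = 0.981) and -0.77 with Olig2 (SE 1.44, edgeR adjusted p = 1.00). The 95% interval of the Olig3 change ran from -2.97 to 3.26, so changes of several-fold in either direction were not detectable. The sign of that change turned without Olig3 library 1 (-0.55), Olig3 library 2 (-0.04) or GFP library 1 (-0.23), and it was 0.47 without both Olig3 libraries that stood apart. The change with Olig2 was -0.17 without GFP library 3.

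Pou4f2 (Brn3b; chr8 78433010 to 78436645), the POU factor on which the differentiation and survival of most ganglion cells depend, was read in 1 library of each group. It had 3 counts in Olig3 library 2, 14 in Olig2 library 2 and 26 in GFP library 2. Pou4f3 (Brn3c; chr18 42394539 to 42397249), which is used in a smaller ganglion cell subset and in hair cells of the ear, had 29 counts in Olig3 library 2 and 0 in the other Olig3 libraries. It had 0 counts in all 3 Olig2 libraries, and 22, 0 and 35 in the GFP libraries. With 3 counts over the Olig2 group as the floor, the pooled counts of Pou4f3 were at least 14.5-fold lower with Olig2 than with GFP (edgeR adjusted p = 1.00). That bound covers counting error only and rests on GFP libraries 1 and 3, since GFP library 2 had 0 counts as well. Pou4f3 was at least 9.22-fold higher in the Olig3 group than in the Olig2 group, from 1 library (edgeR adjusted p = 0.933). With Olig3 against GFP its log2 change was -0.16 (SE 2.25, edgeR adjusted p = 0.988), and it turned positive without Olig3 library 1 (0.44), Olig3 library 3 (0.44), GFP library 1 (0.04) or GFP library 3 (0.54). Without Olig3 library 2 no Olig3 library held a count of Pou4f3, and the fitted change of -7.13 depends on the prior count. With the replicate number as a block it was -3.64. No library held counts of all 3 POU factors except Olig3 library 2.

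The summed POU factors and the other ganglion cell markers are set side by side here. The POU sum on the unscaled CPM scale was 9.32, 10.6 and 0 in Olig3 libraries 1 to 3, 3.43, 4.24 and 2.21 in the Olig2 libraries, and 5.81, 8.45 and 14.6 in the GFP libraries. The 12 other ganglion cell markers summed to 233, 341 and 103 CPM in the Olig3 libraries, 272, 474 and 228 in the Olig2 libraries, and 2312, 1040 and 1586 in the GFP libraries. That sum was lower in every Olig3 and Olig2 library than in any GFP library, and the POU factor sum likewise lay below every GFP library in all 3 Olig2 libraries and in Olig3 library 3, while Olig3 libraries 1 and 2 lay inside the GFP range. Of the 12 markers, 0 passed over all genes by edgeR in either comparison with GFP. At an unadjusted p below 0.05, 7 were lower with Olig3 and 6 with Olig2, beside 6.37% and 2.08% of all genes tested. None was higher, beside 5.76% and 2.61% of all genes tested. Slc17a6, the vesicular glutamate transporter of ganglion cells, had 11.7 ± 14.0 CPM with Olig3, 15.0 ± 13.2 with Olig2 and 125 ± 7.46 with GFP (edgeR adjusted p = 0.268 with Olig3 and 0.802 with Olig2). The part of the ganglion cell markers in the values of the members was not tested.

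Of the LIM-homeodomain factors, Isl1 was higher than in GFP libraries with both factors, a difference that missed the threshold over all genes. The gene (chr13 116298281 to 116309689) works beside Pou4f2 in young ganglion cells and is needed for bipolar cells. It had 57.2, 60.03 and 94.9 CPM in Olig3 libraries 1 to 3 and 82.2, 73.0 and 61.4 CPM in the Olig2 libraries, against 35.8, 35.0 and 31.2 CPM in the GFP libraries. Every Olig3 and Olig2 library lay above every GFP library, and the Olig3 and Olig2 libraries overlapped. The mean was 70.7 ± 21.0 CPM in the Olig3 group and 72.2 ± 10.4 in the Olig2 group, against 34.0 ± 2.46 in the GFP group. With Olig3 this was 2.08-fold the GFP level (log2 change 1.06, SE 0.28, edgeR unadjusted p = 0.00289, adjusted p = 0.183). With Olig2 it was 2.12-fold (log2 change 1.09, SE 0.28, edgeR unadjusted p = 0.00242, adjusted p = 0.472). By DESeq2 the Olig3 difference had an adjusted p of 0.0433. The log2 change with Olig3 was 0.79 without Olig3 library 3 (edgeR adjusted p = 0.328). It was 0.83 without both Olig3 libraries that stood apart, where 1 Olig3 library is left. Scaled to library totals only, the log2 changes were 0.87 with Olig3 and 0.74 with Olig2.

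Between the factors, Isl1 did not differ by a detectable amount. The log2 change, Olig3 over Olig2, was -0.03 (SE 0.28, edgeR adjusted p = 0.990), with a 95% interval from -0.64 to 0.58. Its sign turned without Olig2 library 1 (0.10), without Olig3 library 1 (0.10) or without Olig3 library 2 (0.07), and with library totals only (0.13). Within libraries, Isl1 made up 81.5, 56.1 and 65.2% of the members' counts in the Olig3 libraries and 77.1, 62.3 and 64.3% in the Olig2 libraries, against 34.4, 49.2 and 42.2% in the GFP libraries. The shares did not overlap between either factor group and GFP. They are taken from the same Isl1 counts as the levels above and are no separate evidence of a difference. The other 9 members together had 13.7, 35.1 and 58.4 unscaled CPM in the Olig3 libraries, 26.6, 34.1 and 28.04 in the Olig2 libraries, and 77.9, 40.8 and 50.6 in the GFP libraries.

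**Figure D2:**
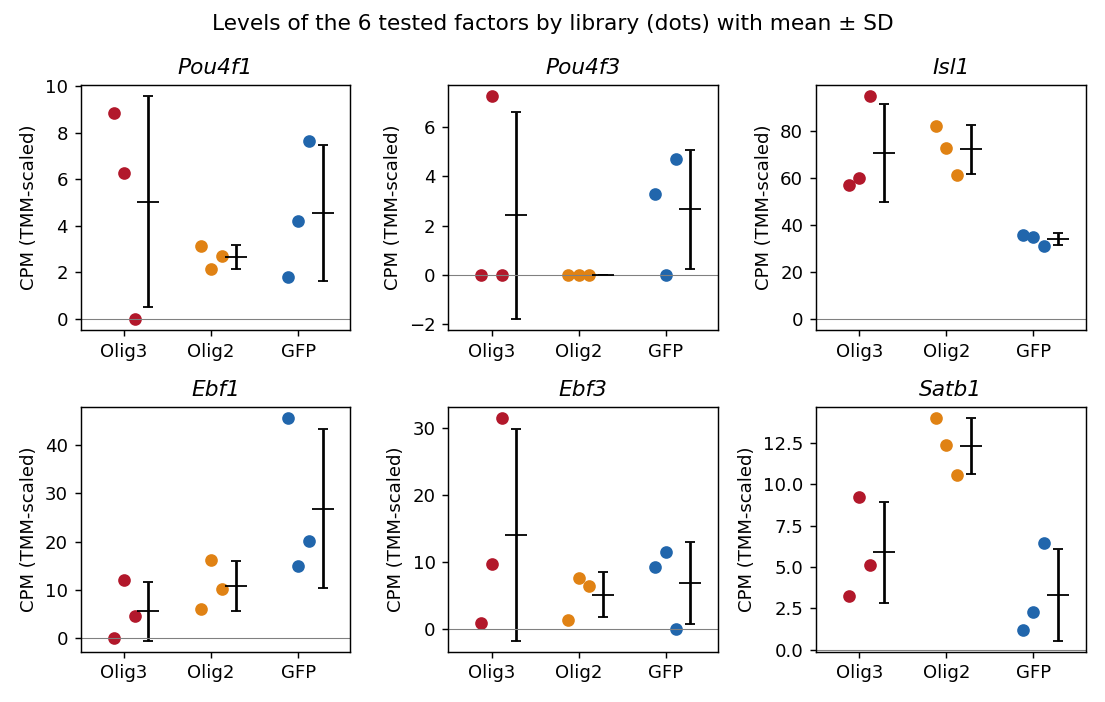
TMM-scaled CPM of the 6 tested factors by group (Olig3, Olig2, GFP), with 1 dot per library and the mean ± SD of 3 libraries to the right of the dots. Isl1 lies at 57.2 to 94.9 CPM in the Olig3 and Olig2 libraries and at 31.2 to 35.8 in the GFP libraries, and Satb1 is at 10.6 to 14.0 CPM in the Olig2 libraries and at 1.20 to 6.43 in the GFP libraries. An SD bar that reaches below 0 shows a spread wider than the mean, and no level lies below 0.

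The summed markers of bipolar cells and of rods were higher in the mean with both factors, as Isl1 was. The 13 bipolar markers summed to 2237, 1212 and 2203 unscaled CPM in the Olig3 libraries and 2145, 1317 and 1276 in the Olig2 libraries, against 1094, 1011 and 1078 in the GFP libraries. None of them was at 0 over all libraries. Of these markers 3 passed over all genes by edgeR with Olig3 and 1 with Olig2, all higher, beside 0.0961% and 0.0384% of all genes tested. Grm6, the glutamate receptor of ON bipolar cells, rose 4.36-fold to 114 ± 36.0 CPM with Olig3, against 26.2 ± 7.36 in the GFP group (edgeR adjusted p = 0.0363). It had 63.9 ± 19.2 CPM with Olig2 (edgeR adjusted p = 0.473). Pcp2, a modulator of G-protein signalling in rod bipolar cells, rose to 196 ± 20.1 CPM with Olig3 and 276 ± 44.7 with Olig2, against 71.1 ± 7.86 in the GFP group (edgeR adjusted p = 0.0363 and 0.0127). The number of all genes that passed depended on the libraries in the fit. With Olig3, 0 passed without any 1 of the GFP or Olig2 libraries or without Olig3 library 1, 2 without Olig3 library 3 and 505 without Olig3 library 2. With Olig2, 0 passed without GFP library 1, GFP library 3 or Olig2 library 1, and 5 to 24 without any 1 of the other libraries. Relative to the bipolar sum, Isl1 stood at 2.69, 3.70 and 4.97% in the Olig3 libraries, 4.18, 4.28 and 3.96% in the Olig2 libraries and 3.73, 3.91 and 3.42% in the GFP libraries. On that measure the Olig3 libraries fell on both sides of the GFP libraries, and the Olig2 libraries lay above them by a mean of 1.12-fold. Chat, the enzyme that makes acetylcholine in starburst amacrine cells, had 1.92 ± 2.01 CPM with Olig3, 2.51 ± 1.30 with Olig2 and 1.29 ± 2.00 with GFP (edgeR adjusted p = 0.932 and 1.00). The 6 starburst amacrine markers, Chat among them, summed to 28.6 ± 29.0 unscaled CPM with Olig3, 28.9 ± 9.16 with Olig2 and 50.1 ± 22.9 with GFP. The 16 rod genes held 11.4 ± 5.28% of the counts with Olig3 and 12.3 ± 3.39% with Olig2, against 6.66 ± 1.37% with GFP. At an unadjusted p below 0.05, 13 rod genes were higher and 0 lower in each comparison with GFP, and 8 bipolar markers were higher and 0 lower. Of all genes tested, 5.76% were higher and 6.37% lower with Olig3, and 2.61% higher and 2.08% lower with Olig2. The part of the bipolar, rod and starburst markers in the Isl1 difference was not tested.

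Isl2 (chr9 55538672 to 55546180), the relative of Isl1 that marks ganglion cells with axons crossing to the other side of the brain, was sparse. It had 63 counts in Olig3 library 3 and 0 in Olig3 libraries 1 and 2, 0, 7 and 1 in the Olig2 libraries, and 0, 0 and 20 in the GFP libraries. Olig3 library 3, the one without counts of Rbpms, Thy1 or any POU factor of the members, thus held the most Isl2. Without the filter on low counts, the edgeR adjusted p of Isl2 was 0.733 with Olig3 and 1.00 with Olig2 against GFP.

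The EBF factors form a family with a zinc-binding DNA contact and a helix-loop-helix used for pairing. Ebf1 (chr11 44617317 to 45008091), which acts in ganglion and amacrine cells and in early B cells, had 0, 12.01 and 4.69 CPM in the Olig3 libraries and 5.99, 16.2 and 10.2 CPM in the Olig2 libraries, against 45.6, 14.9 and 20.1 CPM in the GFP libraries. Every Olig3 library lay below every GFP library, while Olig2 library 2 lay above GFP library 2. The mean was 5.57 ± 6.05 CPM with Olig3 and 10.8 ± 5.14 with Olig2, against 26.9 ± 16.5 with GFP. The log2 change was -2.29 with Olig3 (SE 1.17, 95% interval -4.83 to 0.26, edgeR adjusted p = 0.471) and -1.31 with Olig2 (SE 1.13, edgeR adjusted p = 1.00). With Olig3 it ran from -4.03 to -1.14 over all alternatives, with adjusted p from 0.163 to 1. Without both Olig3 libraries that stood apart it was -1.14. With Olig2 it ran from -2.15 to -0.69, the smallest without GFP library 1.

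Ebf1 lay near the ganglion cell markers in its order over libraries. Of 110 tested genes in the marker lists and the list of other ganglion cell factors, the 1 with the highest rank correlation to Ebf1 was Sncg, a synuclein of ganglion cells (Spearman 0.983, Pearson 0.559, 9 libraries that share groups and depth). Ebf1 stood at 0, 2.63 and 5.25% of the summed ganglion cell markers in the Olig3 libraries, 2.41, 2.64 and 3.69% in the Olig2 libraries, and 2.25, 1.61 and 1.50% in the GFP libraries. On that measure Olig3 library 1 lay below every GFP library and the other Olig3 and Olig2 libraries lay above. The marker sum was itself lower in every Olig3 and Olig2 library than in any GFP library, with 103 unscaled CPM in Olig3 library 3. Markers of other cells that use Ebf1 are set beside it. Pax5, which defines B cells, had 0 counts in every library. The 10 B cell and plasma cell markers summed to 233, 95.04 and 171 unscaled CPM in the Olig3 libraries, 8956, 2338 and 3078 in the Olig2 libraries, and 131, 262 and 173 in the GFP libraries. The immunoglobulin constant gene Igkc alone had 4550.4 ± 2650.1 CPM with Olig2, against 8.30 ± 8.71 with GFP (edgeR adjusted p = 0.0127, lost without the same libraries as for Pcp2). The 8 pericyte markers summed to 1409, 924 and 1009 CPM with Olig3, 937, 703 and 919 with Olig2, and 536, 888 and 856 with GFP. Of the 4 pericyte markers tested, the fitted change was positive for 2 and negative for 2 with Olig3. Pdgfrb, a growth factor receptor of pericytes that did not pass the filter, had 0, 1 and 3 counts in the Olig3 libraries, 4, 3 and 10 in the Olig2 libraries, and 20, 12 and 9 in the GFP libraries. Every Olig3 library lay below every GFP library. The 10 amacrine markers summed to 652 ± 284 unscaled CPM with Olig3, 765 ± 102 with Olig2 and 759 ± 411 with GFP. The part of ganglion cells and of these other cells in the Ebf1 values was not tested.

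Ebf3 (chr7 137193673 to 137314445), the relative of Ebf1 that is also used in amacrine cells, shares 355 exon bases with the antisense gene model Gm45278, which had 1 count in all libraries together. It had 0.885, 9.75 and 31.5 CPM in the Olig3 libraries, 1.28, 7.63 and 6.46 CPM in the Olig2 libraries and 9.28, 11.6 and 0 CPM in the GFP libraries. All groups overlapped. The log2 change was 1.02 with Olig3 (SE 1.48, edgeR adjusted p = 0.823) and -0.44 with Olig2 (SE 1.48, edgeR adjusted p = 1.00). Without Olig3 library 3, the change with Olig3 turned to -0.39, without both Olig3 libraries that stood apart it was 0.50, and without GFP library 2 the change with Olig2 turned to 0.14. The candidate most like Ebf3 in rank was Pax6, a homeodomain factor of amacrine and ganglion cells (Spearman 0.683, Pearson 0.874, 9 libraries). By library, the amacrine markers summed to 545, 437 and 974 unscaled CPM in the Olig3 libraries, 882, 694 and 720 in the Olig2 libraries, and 1224, 603 and 449 in the GFP libraries, with the highest Olig3 value in library 3 as for Ebf3.

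**Figure D3:**
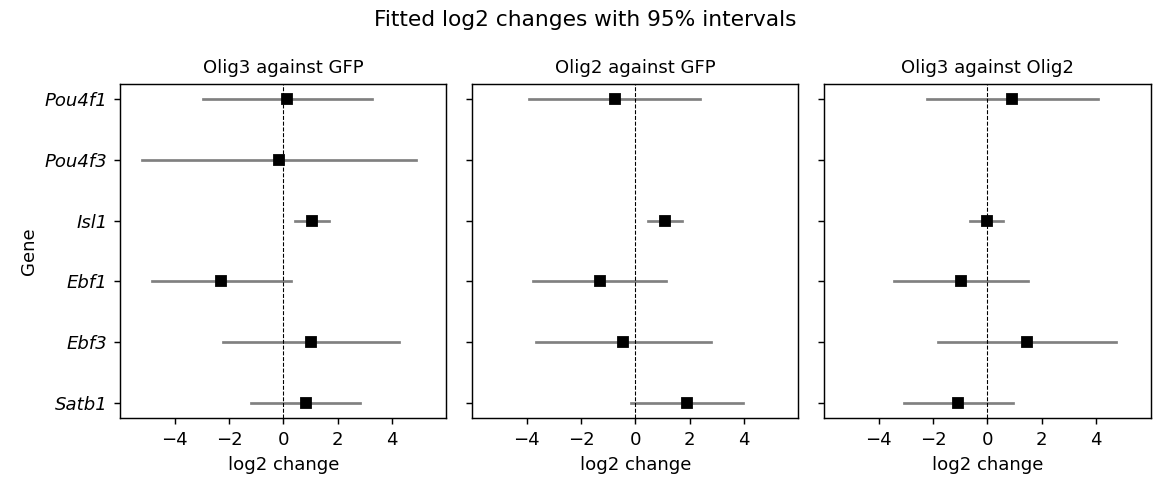
Fitted log2 change (squares) with its 95% interval (lines) for the 6 tested factors in the 3 comparisons, from 1 edgeR model of 9 libraries. Only the intervals of Isl1 against GFP, 0.44 to 1.67 with Olig3 and 0.47 to 1.70 with Olig2, leave out 0, before adjustment over all genes. Pou4f3 is not drawn in the comparisons with the Olig2 group, where it had 0 counts.

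Among the factors of ganglion cell types, Satb1 was higher in every Olig2 library than in any GFP library, without passing the test. Satb1 (chr17 51736187 to 51833290), an organiser of chromatin that shapes the dendrites of direction-selective ganglion cells and is needed by developing T cells, had 3.24, 9.25 and 5.13 CPM in the Olig3 libraries and 14.0, 12.4 and 10.6 CPM in the Olig2 libraries, against 1.20, 2.28 and 6.43 CPM in the GFP libraries. The Olig2 libraries lay above all others. The mean was 12.3 ± 1.70 CPM in the Olig2 group, 3.73-fold the 3.30 ± 2.76 CPM of the GFP group (log2 change 1.89, SE 0.94, 95% interval -0.16 to 3.94, edgeR unadjusted p = 0.0671, adjusted p = 1.00). Over all alternatives it stayed between 1.50 and 2.81. In the Olig3 group the mean was 5.88 ± 3.07 CPM (log2 change against GFP 0.82, SE 0.92, edgeR adjusted p = 0.763). Over all alternatives that change ran from 0.33 to 1.74, the highest without GFP library 3, and it was 1.49 without both Olig3 libraries that stood apart. Between the factors the log2 change was -1.07, Olig3 over Olig2 (SE 0.92, edgeR adjusted p = 0.934), and these libraries did not overlap. It was -0.41 without both Olig3 libraries that stood apart.

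Markers of T cells, of bipolar cells and of B cells are set beside Satb1. Their sums were all higher in the mean with Olig2 than with GFP, as Satb1 was. With Olig3 the T cell sum was the lowest of the 3 groups and the bipolar sum the highest in the mean. The B cell and plasma cell markers summed to 4791 ± 3626 unscaled CPM with Olig2, against 166 ± 68.9 with Olig3 and 189 ± 66.9 with GFP. Most of the Olig2 sum was the immunoglobulin gene Igkc (4550.4 ± 2650.1 TMM-scaled CPM), and Pax5 had 0 counts in every library. The fitted change with Olig2 against GFP was positive for all 7 of these markers that were tested. The 12 T cell markers summed to 2.95, 3.17 and 0 unscaled CPM in the Olig3 libraries, 148, 27.6 and 77.2 in the Olig2 libraries, and 6.83, 56.7 and 42.6 in the GFP libraries. None of the 12 was at 0 over all libraries. Cd3e, a chain of the T cell receptor complex, had 0 counts in all 3 Olig3 libraries, 34, 12 and 22 in the Olig2 libraries, and 0, 7 and 9 in the GFP libraries. Satb1 had 22, 37 and 35 counts in the Olig3 libraries, 98, 52 and 59 in the Olig2 libraries, and 8, 18 and 48 in the GFP libraries. The gene most like Satb1 in rank over the 9 libraries was Prkca, the protein kinase C that marks rod bipolar cells (Spearman 0.917, Pearson 0.945, best of 110). Next in rank was Cd79b, of the B cell and plasma cell markers (Spearman 0.895, Pearson 0.720). As a share of the summed bipolar markers, Satb1 stood at 0.153, 0.570 and 0.269% in the Olig3 libraries, 0.711, 0.727 and 0.683% in the Olig2 libraries and 0.125, 0.255 and 0.705% in the GFP libraries, where GFP library 3 overlapped the Olig2 libraries. The part of any of these cell types in the Satb1 difference was not tested. Satb1 has overlapping gene models, of which Gm36931 shares 156 exon bases on the same strand and Gm6934 shares 128 on the opposite one. The counts of Gm36931 and Gm6934 were 0 to 3 per library, so these models held few reads beside those of Satb1. Other same-strand models, which share no exon bases with it, held more. E430014B02Rik had 109 counts in Olig3 library 3, and 5830444F18Rik had 22 and 26 in Olig3 libraries 1 and 3.

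Tbr1 (chr2 61802930 to 61814114), a T-box factor of ganglion cells with dendrites in the OFF layer, had 7 counts in Olig3 library 2, 22 in Olig2 library 3, 9 in GFP library 3 and 0 elsewhere. Irx2 (chr13 72628820 to 72634198), an Iroquois homeodomain factor of some ganglion cell types, had 0 counts in the Olig3 libraries, 3 in Olig2 library 2 and 47 in GFP library 1. With 3 counts over the Olig3 group as the floor, the pooled counts of Irx2 were at least 12.5-fold lower with Olig3 than with GFP. That bound rests on GFP library 1, since Irx2 had 0 counts in GFP libraries 2 and 3 as well. Without the filter on low counts, its edgeR adjusted p was 0.373 with Olig3 and 0.925 with Olig2, and that of Tbr1 was 1.00 with both. Pou4f2 then had adjusted p = 0.721 with Olig3 and 1.00 with Olig2.

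**Figure D4:**
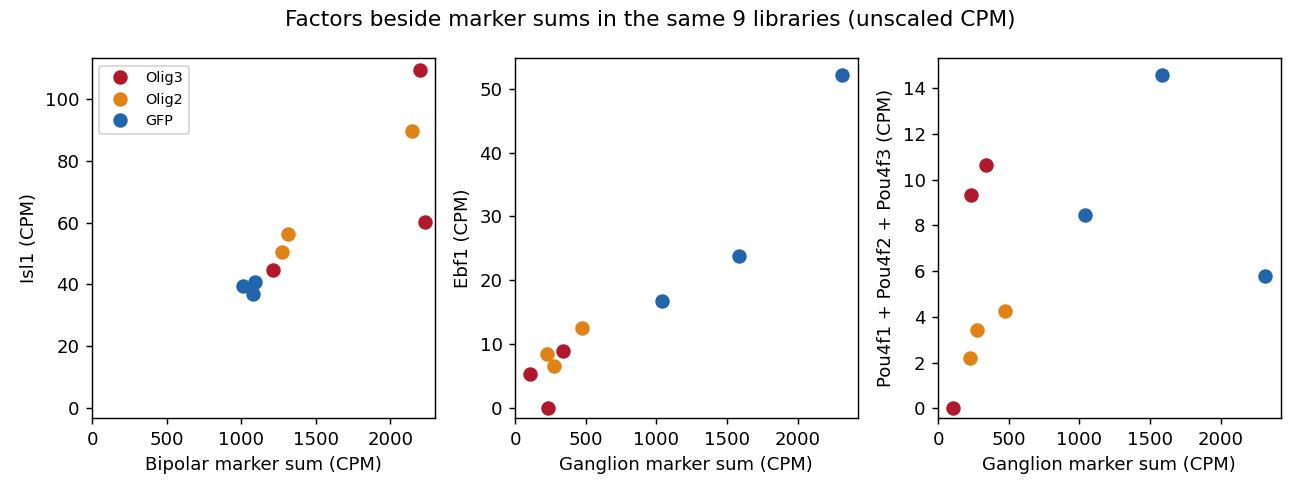
Unscaled CPM in the 9 libraries of Isl1 against the summed bipolar cell markers (left), of Ebf1 against the summed ganglion cell markers (middle) and of the summed Pou4f1, Pou4f2 and Pou4f3 against the ganglion cell markers (right), with 1 dot per library coloured by group. The 3 GFP libraries have the lowest bipolar sums (1011 to 1094 CPM) and the highest ganglion cell sums (1040 to 2312 CPM), while the POU factor sum of Olig3 libraries 1 and 2 (9.32 and 10.6 CPM) lies inside the GFP range.

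Libraries of 1 group differed widely for most members. The coefficient of variation within the GFP group was 7.22% for Isl1 and 61.3 to 90.5% for the other tested members. The median over all genes tested was 37.0%. Isl1 was thus the only tested member below that median in the GFP group. Pou4f2, Isl2, Tbr1 and Irx2, which were not tested, each had counts in only 1 GFP library. That alone sets their value at 173%, so it measures no spread. In the Olig3 group the median over all genes was 61.0% and in the Olig2 group 28.8%. For the remaining tested members, Pou4f1 was ranked most like Vsx1, a homeodomain factor of bipolar cells (Spearman 0.800, Pearson 0.681), Pou4f3 most like Sox11, a factor of young neurons (Spearman 0.673, Pearson 0.586), and Isl1 most like Tfap2b, a factor of amacrine cells (Spearman 0.850, Pearson 0.779). Each is the best of 110 candidates over 9 libraries and is given as a description.

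A list of other transcription factors of ganglion cell development and types held 31 genes, all in the table. Of these, 21 passed the filter on low counts, and 0 had an adjusted p below 0.05 by edgeR in any comparison. At an unadjusted p below 0.05, 1 was higher and 2 lower with Olig3, beside 5.76% and 6.37% of all genes tested. With Olig2, 0 were higher and 1 lower, beside 2.61% and 2.08%. Their median difference in log2 CPM was -0.68 with Olig3 and 0.09 with Olig2, beside -0.18 and 0.06 over all genes tested. For the 6 members tested the medians were 0.14 and -0.05. Myt1, a zinc finger factor of differentiating neurons, had 68.9, 30.8 and 68.1 CPM in the Olig3 libraries, against 29.8, 7.997 and 15.0 in the GFP libraries (3.18-fold, edgeR adjusted p = 0.251). Eomes (Tbr2), a T-box factor of melanopsin ganglion cells, had 0, 0.750 and 0 CPM in the Olig3 libraries, against 31.1, 4.57 and 6.43 in the GFP libraries (edgeR adjusted p = 0.290). Onecut2, a factor of ganglion and horizontal cells, had 0.147, 12.01 and 0 CPM in the Olig3 libraries, against 29.3, 81.7 and 9.91 in the GFP libraries (edgeR adjusted p = 0.364), and these libraries overlapped. The Eomes and Myt1 libraries did not overlap between Olig3 and GFP, as for 10.0% of all genes on the lower and 7.18% on the higher side. Among the 6 tested members, 1 was entirely higher (Isl1) and 1 entirely lower (Ebf1) with Olig3. With Olig2, 2 members were entirely higher (Isl1 and Satb1), beside 8.47% of all genes, and 0 entirely lower, beside 8.35%. Between the factors, Satb1 was entirely lower with Olig3, beside 8.69% of all genes, and 0 members were entirely higher, beside 4.41%.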

How the data were processed

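The authors deposited 1 table of raw counts of reads per gene for 9 libraries, in whole numbers and not normalized. Per the submitters' processing notes, FastQC, HISAT2, HTSeq and mm10 were used. No source states their versions or whether counting used strand, so overlapping antisense genes may share reads. The members and gene lists were chosen with earlier results of these data known. Each column was matched to its sample by title. Of the identifiers, 50712 matched GENCODE release M21 (mm10), which gave coordinates and exon lengths, and 89 rows without a symbol were kept. Promoters came from RefSeq (GRCm38.p6). The test was the quasi-likelihood F test of edgeR (4.0.16, under R 4.3.3), two-sided, with trimmed mean of M-values (TMM) factors and the filterByExpr filter. The fit was 1 model of group means over 9 libraries, with Benjamini-Hochberg adjustment over 15609 genes and a threshold of 0.05, and was checked on simulated data. SE is the log2 change over the root of F. Summed levels are unscaled CPM. Medians use log2 CPM with a prior count of 2. Same-group libraries all differed by more than counting noise (chi-square over its degrees of freedom at least 29.5). Named genes were all members, the 3 other factors with the smallest p against GFP, fixed markers, and for each tested member the fixed-list gene with the highest rank correlation. For Satb1 the next in rank is also named. Library totals were 5355691 to 6979851 counts. Alternatives were RLE, TMMwsp, upper quartile and no scaling factors, other filters, DESeq2 1.42.0, limma-voom 3.58.1, fits of a pair of groups, the replicate number as a block, and leaving out libraries.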

Additional observations from a re-analysis of the deposited data

How the results depend on the processing

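Members past the threshold stayed at 0 under every alternative run, except that DESeq2 called 1 (Isl1, Olig3 against GFP). Counts over all genes, in the order Olig3 against GFP, Olig2 against GFP and Olig3 against Olig2, were 32, 8 and 6 as reported, 556, 176 and 140 with no filter, 502, 90 and 82 with DESeq2, and 0, 23 and 2 in fits of only the groups compared. With limma-voom they were 78 for Olig3 against GFP and 1 for Olig3 against Olig2, and with library totals only 0 for Olig2 against GFP. Alternatives chosen after seeing the data were library totals only, leaving out the 3 libraries richest in Malat1 (20 and 5 for the comparisons with GFP), and leaving out the 2 Olig3 libraries with fewest genes (0, 41 and 0). Leaving out 1 library at a time gave 0 to 505, 0 to 24 and 2 to 160, the highest without Olig3 library 2, Olig3 library 3 and Olig3 library 2. Of the single-member results, 343 kept direction and side of the threshold, 21 turned sign and 1 passed the threshold, and the cause was not tested. Pou4f1, Olig3 against GFP, turned to -1.46 with limma-voom, -0.18 with library totals only and -0.030 without the Malat1-rich libraries. Its Olig3 against Olig2 value turned to -0.91 with limma-voom. Ebf3, Olig2 against GFP, turned to 0.95 with limma-voom, and Isl1, Olig3 against Olig2, to 0.13 with library totals only. Without the 2 Olig3 libraries with fewest genes, Pou4f3 with Olig3 against GFP was 1.46 and Ebf1 with Olig3 against Olig2 was 0.16. Leaving out 1 library at a time, the log2 change with Olig3 against GFP ranged from -0.55 to 0.75 for Pou4f1, from -7.13 to 0.54 for Pou4f3 and from -0.39 to 1.60 for Ebf3. It ranged from -1.02 to 0.14 for Ebf3 with Olig2 against GFP, and from -0.30 to 0.10 for Isl1 with Olig3 against Olig2. Scaling to library totals only moved the median of all genes by -0.24, -0.37 and 0.12 on the log2 scale. The filter of 10 CPM in 3 libraries left out Pou4f1, Pou4f3 and Satb1. Same-numbered libraries showed little shared deviation (correlations -0.06 to 0.11). The highest, between Olig2 library 2 and Olig3 library 2, was also the highest of all pairs across groups. With 3 libraries per group, these values cannot show that the numbers pair nothing. With the replicate number as a block, 0 genes passed with Olig3 against GFP, 10 with Olig2 against GFP and 8 between the factors, and Pou4f1 with Olig3 against GFP was -0.068. Pou4f3, Olig3 against Olig2, has no value without Olig3 library 2 or without the Malat1-rich libraries, since both groups are then at 0. At this depth, a count of 0 does not show that a member was absent.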
